A study of Mus musculus with 6 samples.

Results

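The BCL2 survival family is described here through 8 genes, Bcl2, Bcl2l1, Mcl1, Bcl2l2, Bcl2l11, Bid, Bad and Bak1. They were taken as every array probe whose RefSeq accession belongs to one of these genes, which gave 13 probes for the 8 genes. The array held 36799 genes, where each transcript name that matched no gene symbol counts as its own gene, here and in all shares below. Of the 13 probes, 11 passed the filter on dim signal, so that each of the 8 genes kept at least 1 tested probe. The RNA came from sorted bone marrow haematopoietic stem cells (HSCs) of mice, and the study asked how loss of CDK6, a kinase that drives cells from G1 into S phase, changes these cells at rest and after polyI:C. PolyI:C is a double-stranded RNA analogue that induces interferon and brings resting HSCs into cycle. There were 6 two-colour arrays, each with RNA of Cdk6-/- HSCs in Cy5 (3 untreated and 3 after polyI:C) and RNA of wild-type HSCs, treated alike, in Cy3.

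The untreated Cdk6-/- samples were all set against 1 pool of untreated wild-type cells, and the polyI:C-treated Cdk6-/- samples against 1 pool of polyI:C-treated wild-type cells. The pools were hybridised 3 times each, so the spread of the Cy3 values is technical, and variation among wild-type animals does not enter any test. Dyes were not swapped, so a preference of a probe for Cy5 remains in every ratio and cancels only in the contrast between treatments. The polyI:C dose and timing, the age and sex of the mice, how the Cdk6 allele was made and whether each sample came from 1 animal are not given in the sources used here. Cdk6 itself had 1 probe, with untreated log2 ratios of 0.40, -0.41 and 0.24 and polyI:C log2 ratios of -0.26, -0.44 and -1.28. In Cy5 it was well above background on 0 of the 3 untreated arrays, where the ratios rest on background signal, and on all 3 polyI:C arrays. The sources do not say whether this probe lies in the stretch removed from the allele, so its values check nothing about the genotype.

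Proteins of this family control the permeability of the outer mitochondrial membrane. BCL2, BCL-XL (from Bcl2l1), MCL1 and BCL-W (from Bcl2l2) hold BAX and BAK (from Bak1) in check, BH3-only proteins such as BIM (from Bcl2l11), BID and BAD oppose them, and active BAX or BAK lets cytochrome c out to start the caspase cascade. HSCs depend on MCL1 for survival, and BCL2 made in excess enlarges the HSC pool.

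The regions upstream of the 3 genes that passed the test in untreated cells, and of Mcl1, are printed to show the sequence around their starts. They are the 250 bases before the annotated start in RefSeq's GRCm38.p6, read 5′ to 3′ on the gene's strand, with the SP1 box (GGGCGG, or CCGCCC on the other strand) in capitals.
Bcl2: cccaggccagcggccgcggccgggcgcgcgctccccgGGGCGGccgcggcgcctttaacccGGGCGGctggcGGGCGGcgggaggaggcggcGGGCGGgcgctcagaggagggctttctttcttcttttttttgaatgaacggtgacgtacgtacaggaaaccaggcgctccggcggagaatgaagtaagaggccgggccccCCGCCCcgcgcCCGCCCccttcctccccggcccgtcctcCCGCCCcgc
Bid: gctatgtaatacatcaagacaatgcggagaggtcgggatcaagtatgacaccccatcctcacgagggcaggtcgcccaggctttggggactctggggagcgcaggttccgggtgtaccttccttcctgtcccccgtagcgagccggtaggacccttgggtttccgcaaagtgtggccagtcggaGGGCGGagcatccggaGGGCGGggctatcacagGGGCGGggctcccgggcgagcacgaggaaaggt
Bad: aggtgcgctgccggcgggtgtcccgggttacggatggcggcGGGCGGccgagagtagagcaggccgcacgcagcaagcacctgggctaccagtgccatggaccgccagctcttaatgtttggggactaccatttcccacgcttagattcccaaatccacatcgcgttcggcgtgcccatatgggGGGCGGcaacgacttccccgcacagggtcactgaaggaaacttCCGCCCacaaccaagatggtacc
Mcl1: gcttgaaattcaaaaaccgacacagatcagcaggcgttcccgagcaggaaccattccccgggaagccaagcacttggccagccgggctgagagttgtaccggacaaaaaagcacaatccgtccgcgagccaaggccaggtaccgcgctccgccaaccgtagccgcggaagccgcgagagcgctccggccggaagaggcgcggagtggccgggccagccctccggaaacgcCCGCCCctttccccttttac
The Bcl2 region lies at chr1:106714291-106714540 on the minus strand, is 74.8% G or C and holds 7 SP1 boxes. The Bid region, at chr6:120916825-120917074 on the minus strand, holds 3. The Bad region, the first of 2 annotated, lies at chr19:6941611-6941860 on the plus strand and also holds 3. The Mcl1 region, at chr3:95658471-95658720 on the plus strand, holds 1. The box occurs in 32.7% of 32851 promoters of the same length, so its presence is common. None of the 8 genes' regions held the letters GAAANNGAAA (an interferon response element, in 2.98% of promoters), TTCNNNGAA (a STAT site, 7.02%), TGACGTCA (a CREB site, 1.55%), GCGTGGGCG (an EGR site, 0.536%) or TTTGGCGC (an E2F site, 0.417%), on either strand. Bcl2l11, a known FOXO target, had TGTTTAC, a FOXO site (3.17% of promoters), in its first region, 227 bases before the start on the other strand. These matches describe the letters only.

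Without treatment, Bcl2 was higher in Cdk6-/- HSCs than in the wild-type pool, and Bid and Bad were lower, each by about the same amount. With the authors' processed signals in place of the normalisation used here, none of these 3 calls was kept (limma adjusted p 0.0539 for Bcl2, 0.116 for Bid and 0.111 for Bad), at ratios of 0.71, -0.62 and -0.58. The other 5 genes did not pass the test, Mcl1 and Bak1 being the nearest to it. After polyI:C none of the 8 passed in limma, with 2 of 8 at an unadjusted p under 0.05, beside 13.4% of all genes. Mcl1 stood above its pool and Bid below it on all arrays of both treatments. Bak1, and Bad on the brighter of its 2 probes, were below the pool untreated and above it after polyI:C. Values are log2 ratios of Cdk6-/- over wild type unless a level is named, and adjusted p-values are from limma with Benjamini-Hochberg adjustment over 22630 genes.

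**Figure D1:**
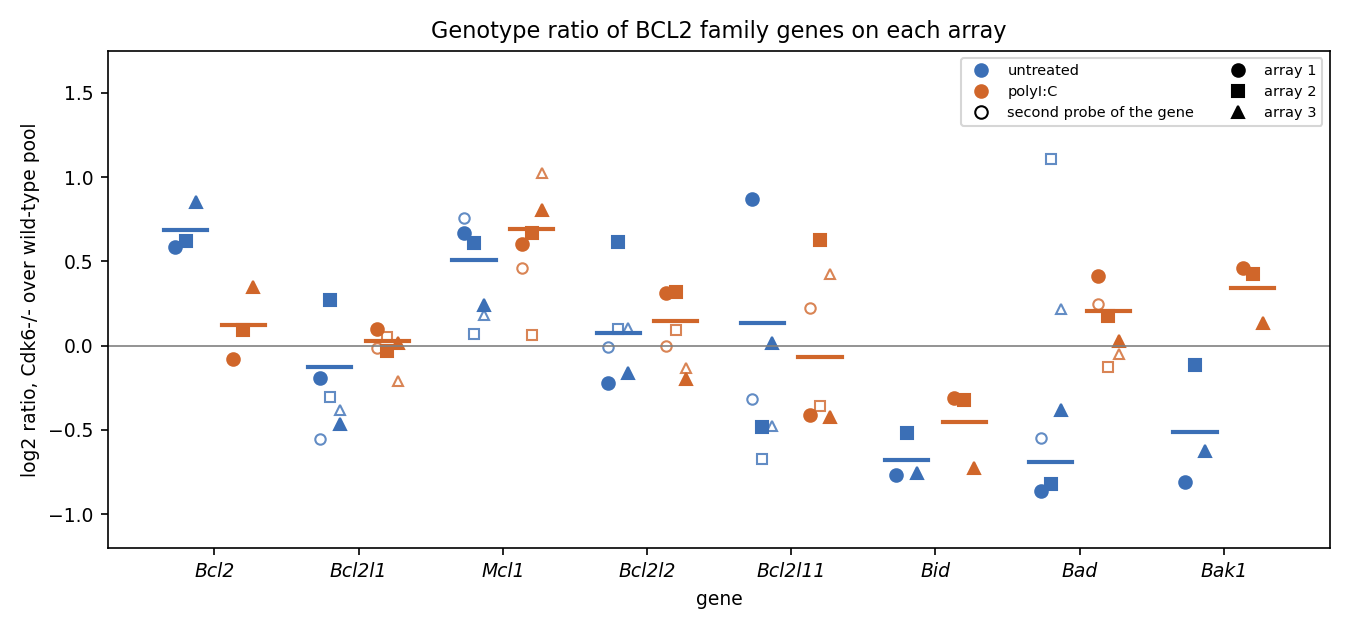
Log2 ratio of Cdk6-/- over the wild-type pool for each of the 8 genes (x axis), with 1 point per array, untreated in blue and polyI:C in orange. Filled points are the probe that stands for the gene, open points its second probe, symbols the array number and short lines the mean of 3 arrays; untreated Bcl2 lies above 0, and untreated Bid and Bad below 0, on all 3 arrays.

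Bcl2, the founding survival protein of the family, had untreated ratios of 0.58, 0.62 and 0.85, and polyI:C ratios of -0.08, 0.09 and 0.35. The 2 treatments did not overlap. The untreated mean was 0.69 ± 0.14 (SD, n = 3), 1.61-fold higher in Cdk6-/- cells, with a standard error of 0.17 and a limma adjusted p of 0.0266, against 3.07% of all genes tested that passed as higher. With polyI:C the mean was 0.12 (limma adjusted p 0.807). The difference between treatments was -0.57 with a standard error of 0.24 and did not pass (limma adjusted p 0.274). Leaving out 1 of the 3 untreated arrays moved the untreated limma adjusted p to between 0.0790 and 0.125, and leaving out polyI:C array 2, which shares the estimate of the spread, to 0.0540.

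The log2 level of Bcl2 in the wild-type pools was 10.32, 10.23 and 10.44 untreated and 11.34, 11.55 and 11.79 with polyI:C. In Cdk6-/- samples it was 10.90, 10.85 and 11.29 untreated and 11.26, 11.65 and 12.13 with polyI:C. The pools therefore differed by 1.23 (2.35-fold), with no test since each pool is 1 sample, and the Cdk6-/- samples, whose groups overlapped, by 0.66 with a standard error of 0.35 (limma adjusted p 0.575). Bcl2 was the only one of the 8 genes whose pool level was higher by 1 or more with polyI:C. Among all genes tested, 4.22% had a pool level higher by that much.

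Mcl1, a short-lived survival protein, had untreated ratios of 0.67, 0.61 and 0.24 and polyI:C ratios of 0.61, 0.67 and 0.81. All 6 lay above 0 and the treatments overlapped. The means were 0.51 (standard error 0.17, limma adjusted p 0.0787) untreated and 0.69 (standard error 0.17, limma adjusted p 0.104) with polyI:C, so neither passed. Its second probe, which was dimmer, was also above 0 on all 6 arrays, with ratios of 0.76, 0.07 and 0.18 untreated and 0.46, 0.06 and 1.02 with polyI:C. When each array was centred on its median in place of the loess curve, which put the all-gene median at 0.30 instead of -0.05 untreated and at 0.21 instead of -0.02 with polyI:C, Mcl1 passed in both treatments, at 1.12 (limma adjusted p 0.00222) and 1.19 (limma adjusted p 0.00195).

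The log2 level of Mcl1 in Cdk6-/- samples was 13.28, 12.96 and 12.58 untreated and 12.48, 12.38 and 12.46 with polyI:C. The lowest untreated sample stood just above the highest polyI:C sample, so the groups did not overlap, and the change of -0.50 did not pass (limma adjusted p 0.687). The pools also differed by -0.69. The second probe showed no such shift, with a change of 0.05 in Cdk6-/- samples.

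Bcl2l1, which encodes the survival protein BCL-XL, had 2 probes for different RefSeq transcripts. The brighter gave ratios of -0.19, 0.27 and -0.46 untreated and 0.10, -0.03 and 0.02 with polyI:C, with means of -0.13 and 0.03 (limma adjusted p 0.693 and 0.967). The dimmer gave -0.55, -0.30 and -0.38 untreated and -0.01, 0.05 and -0.21 with polyI:C. Its untreated mean of -0.41 did not pass in the fit over all 31802 probes (limma adjusted p 0.137). With polyI:C the level in Cdk6-/- samples moved by -0.41 on the brighter probe and by 0.39 on the dimmer, in opposite directions, and neither change passed (limma adjusted p 0.780 and 0.755 over all probes).

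Bcl2l2, which encodes BCL-W, was dim, well above background in Cy5 on 1 of 3 untreated arrays and on all 3 polyI:C arrays. Its ratios were -0.22, 0.62 and -0.16 untreated and 0.31, 0.32 and -0.20 with polyI:C, and both groups crossed 0. The means of 0.08 and 0.14 did not pass (limma adjusted p 0.845 and 0.814). Its second probe was well above background on only 1 of 3 arrays in each group and channel and was not tested.

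**Figure D2:**
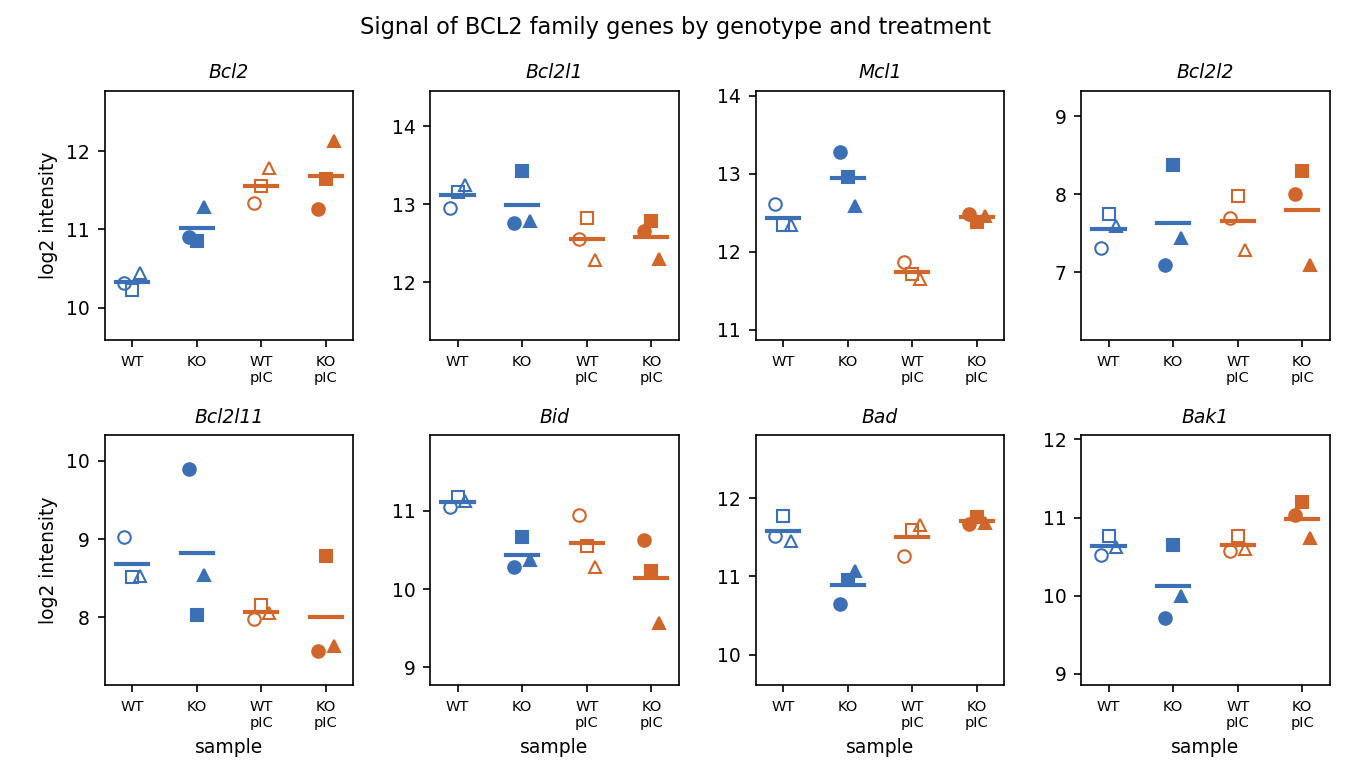
Log2 intensity after normalisation (y axis, each panel spanning the same number of log2 units) of each gene's main probe in the wild-type pools (open) and Cdk6-/- samples (filled), untreated in blue and polyI:C (pIC) in orange, with short lines for means of 3 arrays. The mean of Bcl2 with polyI:C lies 1.23 above the untreated mean in the pools and 0.66 above it in Cdk6-/- samples, whose points overlap, while the Cdk6-/- points of Bad and Bak1 with polyI:C lie above the untreated ones, beside pool changes of -0.08 and 0.00.

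Among the BH3-only genes, Bid links death receptors to mitochondria once caspase-8 has cut its protein. Its ratios were -0.77, -0.52 and -0.75 untreated and -0.31, -0.32 and -0.72 with polyI:C. All 6 were below 0, with overlapping treatments. The untreated mean was -0.68 ± 0.14 (SD, n = 3), 1.60-fold lower in Cdk6-/- cells (standard error 0.17, limma adjusted p 0.0288), against 9.94% of all genes that passed as lower. The polyI:C mean of -0.45 did not pass (limma adjusted p 0.287), and the difference between treatments of 0.23 did not either (limma adjusted p 0.706). Leaving out 1 untreated array gave a limma adjusted p of 0.0639 to 0.125, and leaving out polyI:C array 2 gave 0.0553. With median centring the ratio was -0.27 (limma adjusted p 0.364).

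Bad, whose protein binds BCL2 and BCL-XL until survival kinases phosphorylate it, had untreated ratios of -0.87, -0.82 and -0.38 and polyI:C ratios of 0.41, 0.18 and 0.03. The groups lay on opposite sides of 0. The untreated mean was -0.69 ± 0.27 (SD, n = 3), 1.61-fold lower (standard error 0.18, limma adjusted p 0.0311), and the polyI:C mean was 0.20 (limma adjusted p 0.674). The difference between treatments, 0.89 with a standard error of 0.25, did not pass (limma adjusted p 0.106). Without untreated array 1 or 2 the limma adjusted p was 0.148 or 0.129, and without polyI:C array 2 it was 0.0595. With median centring the untreated ratio was -0.26 (limma adjusted p 0.400).

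The 2 Bad probes did not give the same picture. The dimmer had ratios of -0.55, 1.11 and 0.22 untreated and 0.25, -0.13 and -0.05 with polyI:C, a Pearson correlation of -0.16 with the brighter over the 6 arrays. Its untreated mean was 0.26 (limma adjusted p 0.574 over all probes). With the mean of both probes, Bad stood at -0.22 untreated (limma adjusted p 0.502), so the call rests on the brighter probe. For comparison, the probe pairs of Bcl2l1 and Mcl1 had correlations of 0.43 and 0.54.

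Bcl2l11 encodes BIM, a direct activator of BAX and BAK. Its ratios were 0.87, -0.49 and 0.02 untreated and -0.41, 0.63 and -0.42 with polyI:C, which spread over more than 1 log2 unit in each group. The means of 0.13 and -0.07 did not pass (limma adjusted p 0.796 and 0.944), with a standard error of 0.28, the highest of the 8 genes. Its second probe was not well above background in Cy5 on any untreated array and was not tested.

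Bak1 encodes BAK, an effector that forms the pore. Its ratios were -0.81, -0.11 and -0.62 untreated and 0.46, 0.43 and 0.14 with polyI:C, on opposite sides of 0. The untreated mean of -0.52 (standard error 0.19) did not pass, with a limma adjusted p of 0.10, nor did the polyI:C mean of 0.34 (limma adjusted p 0.480). The difference of 0.86 with a standard error of 0.27 did not pass either (limma adjusted p 0.136).

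For the brighter Bad probe and for Bak1 the values of the 2 treatments stood apart in the Cdk6-/- channel. The log2 level of Bad in Cdk6-/- samples was 10.65, 10.95 and 11.07 untreated and 11.67, 11.77 and 11.68 with polyI:C, and the groups did not overlap. That of Bak1 ran from 9.72 to 10.65 untreated and was 11.03, 11.19 and 10.73 with polyI:C, again without overlap. The changes of 0.82 and 0.86 did not pass (limma adjusted p 0.388 and 0.442), while the pools moved by -0.08 and 0.00. The dimmer Bad probe did not show this, with overlapping levels and a change of 0.24 (limma adjusted p 0.917 over all probes). Counted over the family, the Cdk6-/- levels did not overlap for 3 of the 8 genes (Mcl1, Bad and Bak1), against 16.9% of all genes, and 0.163% of all genes passed that test.

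The signs across the family can be read against the same counts over all genes. Untreated ratios were below 0 on all 3 arrays for Bid, Bad and Bak1, 3 of 8 genes against 28.3% of all genes, and above 0 on all 3 for Bcl2 and Mcl1, 2 of 8 against 20.9%. PolyI:C ratios were above 0 on all 3 arrays for Mcl1, Bad and Bak1, against 16.4%. The ratios of the treatments did not overlap for Bcl2, Bad and Bak1, against 22.8%, and the pattern of Bad and Bak1, below 0 untreated and above 0 with polyI:C on every array, was seen in 4.21% of all genes. The reverse pattern, above 0 untreated and below 0 with polyI:C on every array, was seen in 2.41% of all genes and in none of the 8. The median of the 8 genes was -0.03 untreated and 0.13 with polyI:C, beside -0.05 and -0.02 over all genes. Of all genes, 1.81% passed for the difference between treatments, 0.327% passed as higher and 0.654% as lower with polyI:C, and none of the 8 genes was among them in limma, while 3 of 8 had an unadjusted p under 0.05 for the difference, beside 16.5% of all genes. The exact permutation test of 1 value with 3 arrays against 3 cannot go below 0.1.

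The arrays sat on 3 slides, with untreated arrays 1 and 3 and polyI:C array 1 on the first, array 2 of both treatments on the second, and polyI:C array 3 alone on the third. Within the first and second slide the difference between treatments for the brighter Bad probe was 1.04 and 1.0, and for Bak1 1.18 and 0.54. For Bcl2 it was -0.80 and -0.53. These kept their sign, whereas Bcl2l11 gave -0.85 and 1.11. With slide as a fixed block, the untreated ratios of Bcl2 and Bad were 0.68 and -0.62 (limma adjusted p 0.0623 and 0.0915), while Bid kept its call at -0.72 (limma adjusted p 0.0482).

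**Figure D3:**
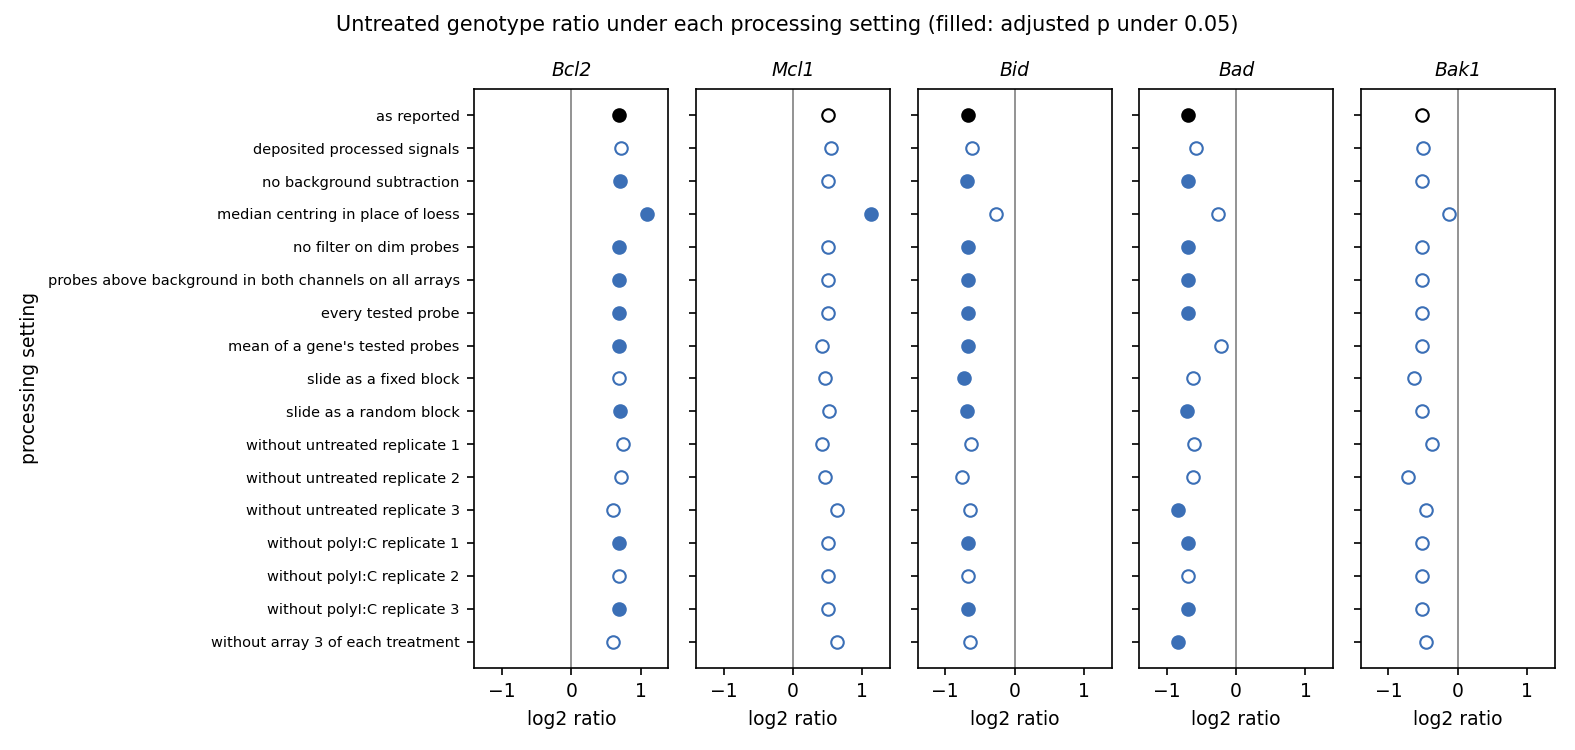
Untreated log2 ratio (x axis) of Bcl2, Mcl1, Bid, Bad and Bak1 as reported (black) and under each other processing setting (blue, 1 per line of the y axis), filled where the limma adjusted p is under 0.05. Every point for Bcl2 and Mcl1 lies above 0 and every point for Bid, Bad and Bak1 below 0, while Bcl2, Bid and Bad are each filled under 9 of 16 other settings. Settings that change only the dim-probe filter, the set of probes tested or a polyI:C array leave these ratios unchanged and move only the adjusted p.

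The samples also differed in ways that the labels do not give. Xist had ratios of -3.98 (array 3 of the untreated set) and -3.42 (array 3 of the polyI:C set), against 0.42 to 1.87 on the other 4 arrays, and polyI:C array 3 correlated at 0.13 and 0.22 with the other polyI:C arrays over genes, which correlated at 0.56 with each other. On polyI:C array 3, 76.5% of spots were well above background in Cy5 and 75.6% in Cy3. The other arrays had 47.0% to 55.7% in Cy5 and 54.4% to 58.7% in Cy3, and the part of this in the polyI:C values was not tested. In a fit without polyI:C array 3 alone, 218 genes passed in limma with polyI:C, against 222 with all arrays. For the difference between treatments 6 passed, against 409. Without array 3 of each treatment the untreated ratio of Bcl2 was 0.60 (limma adjusted p 0.0740) and that of Bid -0.64 (limma adjusted p 0.0701), while Bad kept its call at -0.84 (limma adjusted p 0.0441). All 14 HSC markers were well above background in Cy5 on all arrays. Markers of other cells moved with genotype in untreated samples, where 7 of 11 B-cell markers (median -1.45), 8 of 9 stromal and endothelial markers (-1.21), 3 of 5 mast cell and basophil markers (-0.98), 4 of 12 granulocyte markers (-0.79), 3 of 9 megakaryocyte markers (-0.65, with 1 more that passed as higher) and 4 of 11 erythroid markers (-0.41) passed as lower, beside 9.94% of all genes. With median centring 7 B-cell and 6 stromal markers passed as lower, 1 granulocyte marker did, and the erythroid list had 2 higher and 1 lower. In that setting 8 of 14 HSC markers passed as higher, beside 4863 of 22630 genes. With polyI:C, 3 of 11 erythroid markers passed as lower (median -1.02), beside 0.654% of all genes. As higher passed 1 of 9 monocyte markers (0.85) and 0 of 12 granulocyte markers in limma (0.87), beside 0.327%. At an unadjusted limma p under 0.05 were 11 of 12 granulocyte, 7 of 9 monocyte and 6 of 11 erythroid markers, beside 13.4% of all genes. None of these erythroid and monocyte calls was kept with the authors' processed signals, where 34 genes passed in all. With median centring all 12 granulocyte, 6 of 9 megakaryocyte and 5 of 9 monocyte markers passed as higher, beside 2333 of 22630 genes. In that setting 4 of 11 erythroid markers passed as lower. The B-cell list summed to a log2 level of 14.27 to 14.82 in untreated Cdk6-/- samples against 15.41 to 15.44 in the pool, and the stromal list to 13.01 to 13.81 against 14.54 to 14.59. Granulocyte markers summed to 17.39 to 18.13 against 18.44 to 18.93. The other lists with markers named above as lower overlapped their pool. Erythroid markers summed to 16.84 to 17.25 against 16.75 to 17.24, and megakaryocyte markers to 13.09 to 13.96 against 13.48 to 13.53. Mast cell and basophil markers summed to 12.62 to 13.0 against 12.81 to 13.06. Of these 8 markers, 2 were well above background in Cy5 on all untreated arrays. Among all markers, Lepr and Ms4a2 were never above background in Cy5. In bulk samples fewer cells of a type and less RNA per cell cannot be told apart, and the part of these markers in the ratios of the family was not tested.

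The rest of the pathway was followed through 5 lists, of which 63 of 69 genes were tested. Untreated, 2 of 63 passed as higher, beside 3.07% of all genes, and 4 as lower, beside 9.94% of all genes, with a median of -0.16, so neither count stands above that background. With polyI:C 1 passed as higher, beside 0.327% of all genes, and 0 as lower, beside 0.654%, with a median of -0.10. Of the 63, 11 had an unadjusted limma p under 0.05 with polyI:C, beside 13.4% of all genes. In limma 0 passed for the difference between treatments and 0 for the change in Cdk6-/- cells, with 12 and 8 at an unadjusted p under 0.05, beside 16.5% and 10.3% of all genes. With median centring the untreated medians of the 5 lists lay between 0.10 and 0.62, beside 0.30 for all genes, so the sign of a list's median is not used here.

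Of the closest relatives of the 8 genes, 11 of 16 were tested and 2 passed as lower in untreated cells (9.94% of all genes did), with a median of -0.22. Bcl2l14, a poorly understood relative, had untreated ratios of -1.08, -1.45 and -0.91 and a mean of -1.15 (standard error 0.21, limma adjusted p 0.00732). Bok, an effector-like relative of BAX and BAK, had ratios of -0.84, -0.95 and -0.33 (limma adjusted p 0.0420). Its probe was not well above background in Cy5 on any untreated array, so the size of its ratio is uncertain. In Cy3 it was well above background on all 3 untreated arrays, and with polyI:C on 1 of 3 arrays in each channel. Bok thus entered the test only through the untreated pool, a filter that itself favours a ratio below 0. With Cy5 set no lower than each array's dimmest level well above background, the mean level was 1.48-fold lower. With the authors' processed signals the ratio of Bok was -1.95 (limma adjusted p 0.0424). The call for Bok was lost without any 1 of the 6 arrays, with a limma adjusted p of 0.0502 to 0.182.

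Bax, the other main effector, did not pass, with untreated ratios of -0.72, 0.15 and 0.03 and polyI:C ratios of -0.05, -0.22 and 0.36. Bbc3, which encodes the p53-induced activator PUMA, was above 0 on all 6 arrays, with means of 0.44 and 0.60 that did not pass (limma adjusted p 0.226 and 0.270) but passed with median centring (limma adjusted p 0.0174 and 0.0210). Pmaip1, which encodes NOXA, an MCL1 antagonist, had ratios of 0.70, 0.18 and -1.53 untreated and 0.58, 1.0 and 2.07 with polyI:C. The treatments overlapped and the polyI:C mean of 1.22 did not pass (limma adjusted p 0.205) except with median centring (1.45, limma adjusted p 0.0134). Bmf, a BH3-only gene, stood at -0.65 untreated (limma adjusted p 0.0998, and 0.0315 without untreated array 1). Its probe was well above background in Cy5 on 1 of 3 untreated and 0 of 3 polyI:C arrays, so the size of its ratio is uncertain. In Cy3 the counts were 3 of 3 and 0 of 3, so Bmf entered the test only through the untreated pool. Untreated array 1 held its highest untreated Cy5 level, 8.48 against 7.16 and 7.05. Bcl2a1d, a survival gene whose near-identical copies may share its probe, stood at 0.70 with polyI:C (limma adjusted p 0.294).

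Death receptor genes held the largest untreated value of the 5 lists. Fas, the receptor that engages caspase-8, had untreated ratios of -1.81, -1.69 and -1.01 and a mean of -1.50 (standard error 0.24, limma adjusted p 0.00415). It was well above background in Cy5 on 1 of 3 untreated arrays and in Cy3 on all 3, so the size of the ratio is uncertain, and with the authors' processed signals it was -2.55 (limma adjusted p 0.0225). Tnfrsf10b, the mouse TRAIL receptor, was higher in both treatments, at 0.74 untreated (limma adjusted p 0.0193) and 0.86 with polyI:C (limma adjusted p 0.0480). The untreated call was lost without any 1 of the 3 untreated arrays (limma adjusted p 0.0613 to 0.0993), and the polyI:C call without any 1 of the 6 arrays (limma adjusted p 0.0523 to 0.291). With the authors' processed signals the polyI:C call was also lost (limma adjusted p 0.101). Over all 16 other settings the untreated call was kept under 11 and the polyI:C call under 3. Among genes of the executing machinery, such as caspases and cytochrome c, 0 of 17 passed in limma in untreated cells, with a median of -0.21 and 2 at an unadjusted p under 0.05, beside 28.5% of all genes. Of 18 survival signalling genes, Mapk3, which encodes the kinase ERK1, passed as lower at -0.69 (limma adjusted p 0.0316). The call was lost when array 1 or 3 of the untreated set, or 1 or 2 of the polyI:C set, was left out (limma adjusted p 0.0501 to 0.147), and with median centring (-0.22). It was also lost with the authors' processed signals (limma adjusted p 0.0802), and was kept under 8 of 16 other settings. Of 8 tested genes of BCL2 protein turnover and binding, Ywhaz, which encodes a 14-3-3 protein that holds phosphorylated BAD, passed as higher at 0.75 (limma adjusted p 0.0252). It did not pass without untreated array 2 or 3 (limma adjusted p 0.0969 and 0.139), or as the mean of its probes (0.30). Its call was kept under 11 of 16 other settings. Fas and Bcl2l14 passed under every alternative in which they were tested.

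**Figure D4:**
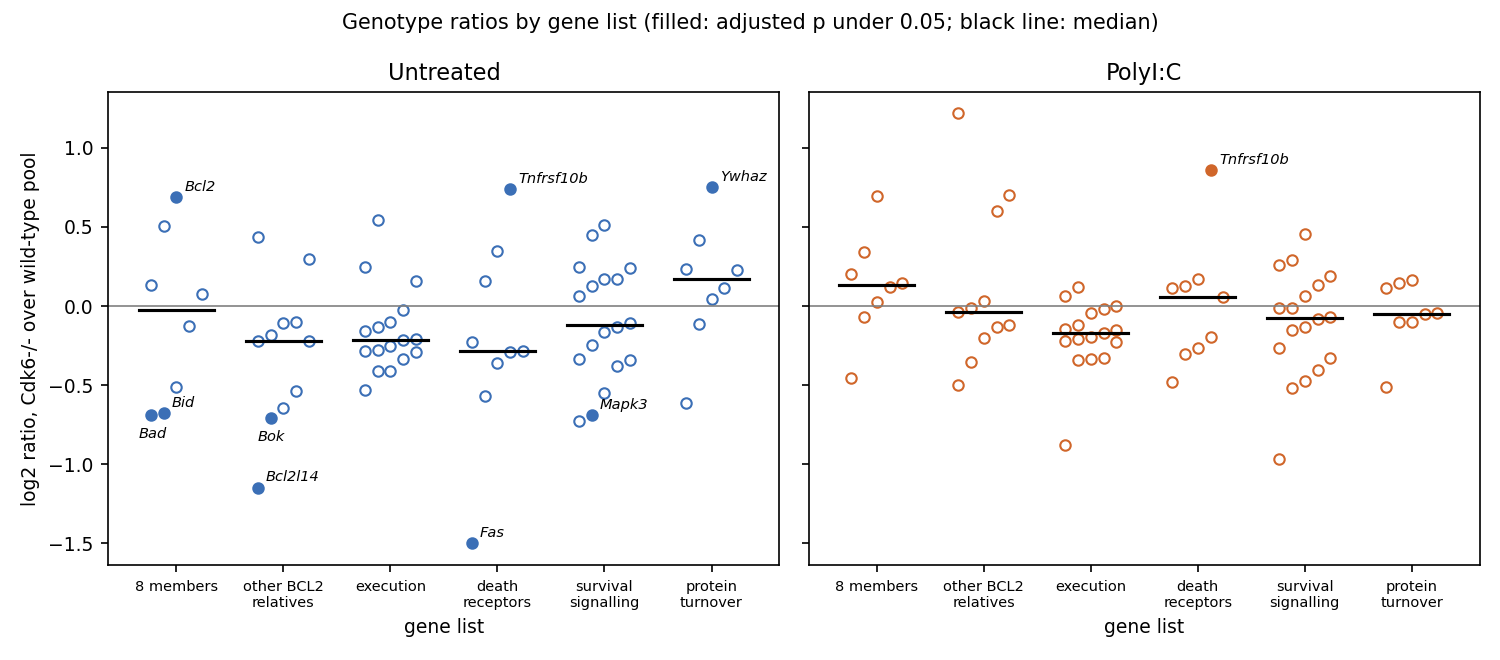
Log2 ratio of Cdk6-/- over the wild-type pool (y axis) for the 8 genes and the 5 pathway lists (x axis), untreated on the left and polyI:C on the right, with 1 point per gene, filled where the limma adjusted p is under 0.05 and a black line at the median. Fas is lowest untreated at -1.50, and Tnfrsf10b is the only filled point with polyI:C, at 0.86.

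The genes whose ratios followed most closely those of the 3 called members over the 6 arrays are given as a description. They are the highest of the 13635 tested genes with a symbol. For Bcl2 they were Madd, Lrpprc and C2cd3, with Pearson correlations of 0.988, 0.982 and 0.981. For Bid they were Rec8, Jpx and Tomm5, at 0.987, 0.984 and 0.982. For Bad they were Ptgs2, Tgm1 and Agpat1, at 0.996, 0.996 and 0.995. Ptgs2 had ratios of -1.33, -1.38 and -0.20 untreated and 1.54, 0.85 and 0.48 with polyI:C, a wider range than that of Bad.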

How the data were processed

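Two-colour Agilent arrays of amplified total RNA (RNeasy Micro, WTA2 amplification, guanine-coupled platinum dyes, per the labels' protocols) were scanned and extracted by the authors with Feature Extraction 11.5.1.1, per the file headers. The deposited scanner files hold linear spot intensity medians, background medians, flags and a log10 ratio of Cy5 over Cy3. A deposited value table holds log2 Cy5/Cy3 of the authors' processed signals, which it matched within 2.52e-06 over 55249 probes.

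From the medians, normexp background correction (offset 50) and loess within each array were applied in limma 3.58.1 (R 4.3.3). Flagged spots (0.657%) were left out. A probe was tested if well above background in 1 channel on all 3 arrays of a group (31802 of 55681 probes), and the brightest tested probe stood for its gene (22630 genes). RefSeq symbols were matched to 22244 of 23839 accessions. Of the 22630 genes, 13635 had a symbol, and each other name was counted as its own gene. lmFit and eBayes were run on all 6 arrays with Benjamini-Hochberg adjustment at 0.05 and 4 residual degrees of freedom. Change with polyI:C was fitted on Cy5 after Aquantile. The deposited labels call the arrays biological replicates but do not tie them to animals. The script was tested on simulated data. Members and gene lists, and the rule naming all members, Bax, Bok, Bbc3, Pmaip1, Bmf, Bcl2a1d and up to 6 further called genes a comparison, were chosen with earlier results of these data known. Background correction, normalisation, dim-probe filter, probe choice, slide and arrays left out were varied.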

Additional observations from a re-analysis of the deposited data

Results flagged for a closer look

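Of the 8 members and 63 tested pathway genes, 5 had ratios on opposite sides of 0 in the 2 treatments on all 3 arrays of each, while the tested difference did not pass. Over all genes, 4.21% were below 0 untreated and above 0 with polyI:C on every array, as were 4 of these 5, and 2.41% the reverse, as was Trp53. The count of 5 is near these shares, so the pattern was not particular to these genes. The difference (polyI:C minus untreated) was 0.89 for Bad on its brighter probe (limma adjusted p 0.106) and -0.24 on its dimmer probe (limma adjusted p 0.819 over all probes). For Bak1 it was 0.86 (limma adjusted p 0.136), and the ratios of both genes are given above. It was -0.98 for Trp53 (limma adjusted p 0.0845), which encodes p53, with means of 0.51 untreated and -0.47 with polyI:C. It was 1.14 for Mapk3 (limma adjusted p 0.0546), with means of -0.69 and 0.45, and this gene passed with slide as a random block (limma adjusted p 0.0453) but not with slide as a fixed block (0.98, limma adjusted p 0.147), under which 0 genes passed in limma, with 4437 at an unadjusted p under 0.05. It was 0.81 for Rps6ka1 (limma adjusted p 0.118), which encodes a kinase downstream of ERK, with means of -0.55 and 0.26.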

How the results depend on the processing

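No paired analysis was possible because the labels give no shared replicate numbers, and arrays that share a slide were compared through the slide instead. The counts of genes that passed were 2944 untreated (694 higher, 2250 lower), 222 with polyI:C, 409 for the difference and 37 for the Cy5 change. With the deposited processed signals they were 1962, 34 and 179 for the first 3, and with median centring 6196 (4863 higher, 1333 lower), 2571 and 241. Without a filter on dim probes the last 3 were 94, 253 and 16, and with probes above background in both channels the last 2 were 263 and 14. With slide as a fixed block they were 1870, 0, 0 and 17 (limma, with 6166, 2797, 4437 and 3769 at an unadjusted p under 0.05), and with slide as a random block the Cy5 count was 126. Scaling Cy5 to the 75th percentile gave 64. Leaving out 1 array in turn gave 1377 to 3427, 7 to 219, 6 to 375 and 0 to 23. Without array 3 of each treatment the counts were 1639, 0, 0 and 0 (limma, with 6727, 3517, 4554 and 4131 at an unadjusted p under 0.05). The cause was not tested. For the members, 456 values under other settings kept their sign and side of the threshold, 25 uncalled ones changed sign, 21 lost the call, 2 gained it (Mcl1 with median centring) and 0 reversed. Untreated Bcl2, Bid and Bad lost the call with processed signals (0.71, -0.62 and -0.58, limma adjusted p 0.0539, 0.116 and 0.111), and Bid and Bad with median centring (-0.27 and -0.26, limma adjusted p 0.364 and 0.400). Over all alternatives Bcl2 ranged from 0.60 to 1.09, Bid from -0.76 to -0.27 and Bad from -0.84 to -0.22. Leaving out a polyI:C array alone cannot move an untreated ratio, so the settings under which a call was kept are not independent checks. Dim signal limits Bcl2l2, Bcl2l11, Bok, Bmf and Fas.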
